A study of Mus musculus with 95 samples.

Results

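Solute carriers are membrane proteins that move ions, sugars, amino acids, organic anions and drugs across cell membranes. The 37 solute carrier genes described here are those known for the proximal tubule of the kidney, chosen by symbol from the 55401 gene rows of the count table, and all 37 were found. They comprise 2 phosphate carriers, 6 carriers of glucose and monocarboxylates, 12 of organic anions and cations, 11 of amino acids and peptides or their partner subunits, 4 of dicarboxylates and sulphate, and 2 of acid and base. Their levels were compared in the kidneys of 3 groups of C57BL/6J mice, a common inbred strain. Stim, read from the series text as the mice kept 3 months in a torpor-like state (TLS), a lowering of metabolic rate and body temperature, stood beside Con, their controls after the same 3 months, and T0, mice taken at the start. Stim and Con mice were 205 days old and T0 mice 122 days old, so Con against T0 also compares ages. Each group held 8 animals, 4 labelled M and 4 labelled F, and each library came from 1 animal. How the state was brought about and what the controls received are not given in the sources used here. All mice were perfused with PBS under the same protocol before the tissues were frozen. Liver, cortex and white adipose tissue (WAT) of the same animals served for contrast, with 24 libraries per tissue and 23 in WAT.

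The proximal tubule is the first segment of the nephron after the glomerulus, and it takes back most of the filtered glucose, phosphate, amino acids and bicarbonate. Carriers on its brush border bring solutes in from the urine, many of them with sodium, and carriers on the basolateral side pass them to the blood or, for organic anions, bring them in from the blood for secretion. Several of these carriers are known to differ between male and female rodents under the control of sex hormones.

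Levels are given in CPM, a gene's reads divided by all reads of the library and scaled to 1000000. The log2 fold changes come from edgeR's quasi-likelihood test with TMM scaling and sex as a covariate, so they can differ from ratios of CPM. TMM factors were 0.67 to 1.05 in M and 0.99 to 1.23 in F kidneys, so this holds for M against F. It also holds for kidney against liver. A gene was called when its Benjamini-Hochberg adjusted p over all genes tested was below 0.05, and errors of log2 fold changes are standard errors. Kidney libraries held 8217875 to 28337864 counts, and all 37 carriers passed the filter on low counts there. Sex labels fitted the expression of Xist and 4 Y-linked genes in 24 of 24 kidney libraries. The Stim M kidney of animal A5DA stood apart. The summed level of 6 genes of injured tubules was 11596 CPM in it, against 647 to 710.4 CPM in the other 3 Stim M kidneys, and that of 4 immune genes was 2904 CPM, against 397 to 566 CPM. The T0 F kidney of animal T0_3 held 205 CPM of 4 genes of adrenal cortex, against at most 2.37 CPM in the other 23 kidneys. Kidney animals T0_4 and T0_5 are labelled M and F, and F and M in the other tissues, so T0 animals were not matched across tissues. In bulk tissue, fewer cells of a type and less RNA per cell cannot be told apart.

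Levels of different carriers can be compared only per length of transcript, as CPM per kb of exon. On this scale Slc34a1, the main phosphate carrier of the brush border, ranked first of the 37 with 1193 as its mean over the 24 kidneys. Slc22a12, the urate carrier, followed with 842 and Slc3a1, the heavy subunit of the cystine carrier, with 305. Next came Slc13a3, a dicarboxylate carrier, with 220.1 and Slc5a2, the sodium-glucose carrier that recovers most filtered glucose, with 202. The lowest was Slco4c1, a basolateral carrier of organic anions, with 2.29. On the genome, 7 of the 37 genes lie on chromosome 19 of GRCm38 (GENCODE vM21 coordinates), among them the neighbours Slc22a8 (chr19:8591254-8611835, + strand) and Slc22a6 (chr19:8618039-8628299, + strand). Slc6a18 (chr13:73661752-73678023, - strand) and Slc6a19 (chr13:73679745-73704865, - strand) are also neighbours. Slc34a1 lies at chr13:55398187-55415592, + strand, and all 37 genes are annotated as protein coding.

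The carriers were genes of kidney above all. In a joint fit of Stim and Con kidneys and livers, 33 of the 37 were higher in kidney and 4 lower, and all 37 were called. Among all 16353 genes of that fit, 73.4% were called, 37.1% as higher and 36.3% as lower in kidney. For 32 of the 37, every kidney library lay above every liver library, which held for 23.3% of the 16005 genes tested in kidney. The same number lay above every cortex library, against 20.4% of genes, and above every WAT library, against 8.46%. The median over libraries was 0 for 19 carriers in liver, 16 in cortex and 15 in WAT. Slc34a1 had a median of 5290.2 CPM in kidney, against 0 CPM in liver, 0.0974 CPM in cortex and 0.407 CPM in WAT.

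**Figure D1:**
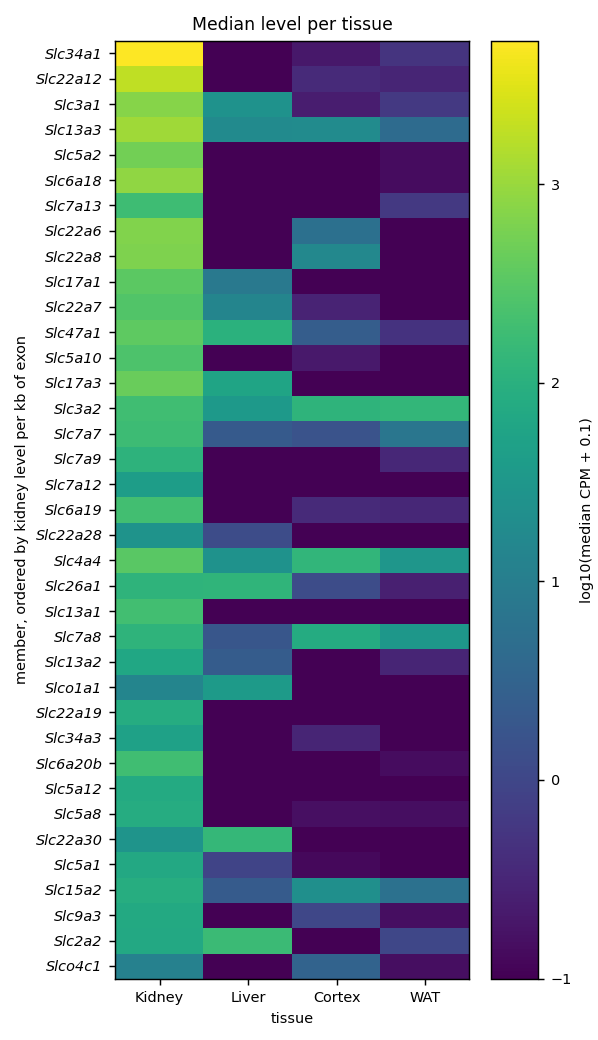
Median level of the 37 carriers in kidney, liver, cortex and WAT (columns), as log10 of CPM plus 0.1, with carriers in rows ordered by kidney level per kb of exon. The 4 carriers, Slc2a2, Slc22a30, Slc26a1 and Slco1a1 have a liver median above the kidney median, where that of Slco1a1 lies between M and F libraries.

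Some carriers were shared with other tissues. Slc2a2, the glucose carrier of the basolateral side and of hepatocytes, had a median of 69.4 CPM in kidney and 163 CPM in liver. Slc22a30, of the organic anion family, had 28.0 CPM in kidney and 143 CPM in liver. Slco1a1, which carries steroid conjugates, had 13.9 CPM in kidney and 37.5 CPM in liver, but these medians over both sexes lie between M and F libraries and give no order of the tissues. Its medians in M, before TMM scaling, were 314 CPM in Stim and 242 CPM in Con kidneys, and 237 CPM in Stim and 188 CPM in Con livers. Its call as lower in kidney in the joint fit is one over both sexes, with F kidneys at or near 0, and was not tested within M. Slc26a1, a sulphate and oxalate exchanger, had close medians before TMM scaling, with 118 CPM in kidney and 124 CPM in liver. With TMM scaling, the joint fit called it lower in kidney (log2 fold change -1.36). Slc3a2, the heavy subunit of several amino acid carriers, had 189 CPM in kidney, 116 CPM in cortex and 136 CPM in WAT. Its light subunit partner Slc7a8, a carrier of neutral amino acids, had 119, 79.3 and 31.1 CPM in the same tissues, and Slc4a4, which passes bicarbonate to the blood, 334, 126 and 29.9 CPM.

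Sex set the widest differences among these carriers. Of the 37, 14 were higher and 8 lower in M kidneys than in F kidneys. Across all 16005 genes tested in kidney 46.8% were called, 24.6% as higher and 22.2% as lower in M, so the share of carriers called was not far above that of genes at large. The organic anion and cation carriers held 9 of the 14 higher genes and 1 lower one among their 12. The amino acid and peptide carriers were more often lower in M, with 2 higher and 5 lower among 11. Among glucose and monocarboxylate carriers 1 was higher and 2 lower of 6, and 1 phosphate and 1 sulphate carrier were higher. Neither acid and base carrier was called.

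The widest difference was in Slco1a1. It had a lowest, median and highest level of 27.7, 275 and 456 CPM in the 12 M kidneys, with 61237 reads in all. In the 12 F kidneys it had 5 reads among 199597896, and 8 of these libraries had none. Slc7a13, which pairs with Slc3a1 to take up cystine and acidic amino acids late in the tubule, had 346, 835 and 1187 CPM in M kidneys, against 0.473, 1.37 and 20.3 CPM in F kidneys. The sexes did not overlap, and the log2 fold change was 8.47 ± 0.485 (edgeR adjusted p = 1.31e-12). The opposite pattern was seen in its relative Slc7a12, which belongs to the same light subunit family. Slc7a12 had 1.54, 6.59 and 21.7 CPM in M kidneys and 63.8, 156 and 202 CPM in F kidneys, again without overlap (-4.16 ± 0.314, adjusted p = 1.85e-10).

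**Figure D2:**
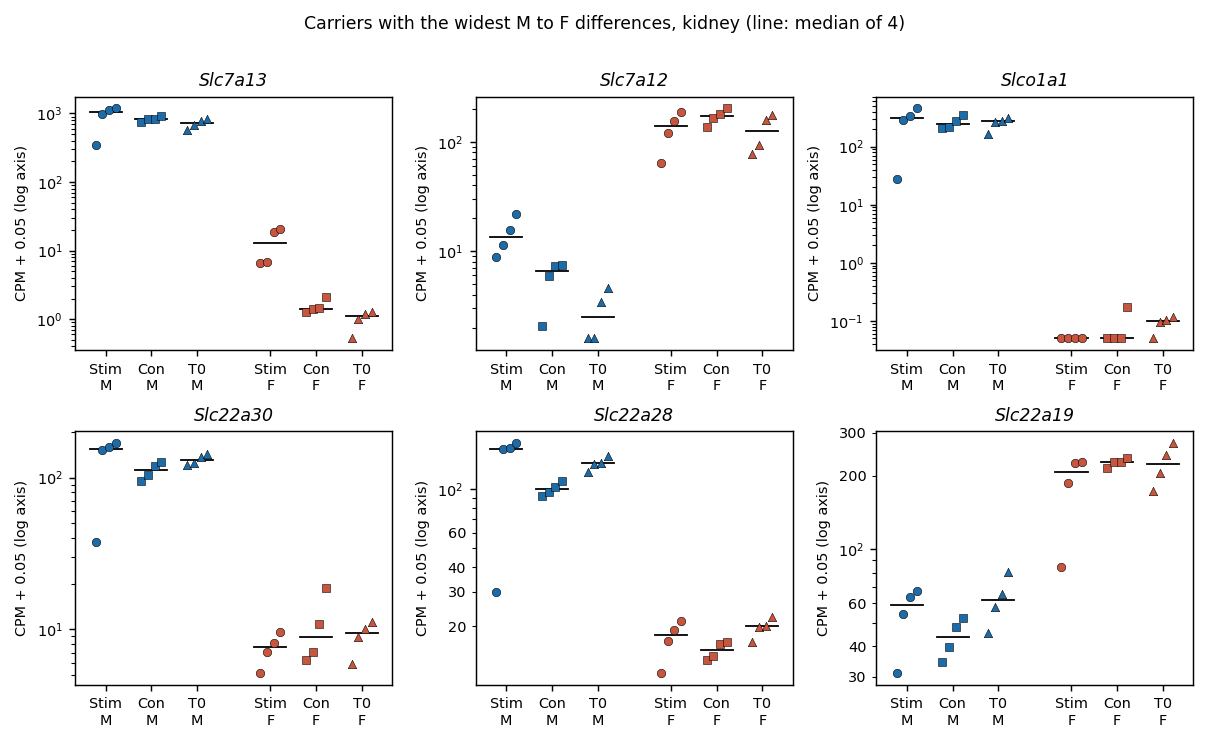
Level in each of the 24 kidneys (CPM plus 0.05, log axis) of 6 carriers that differed between M and F, by group and sex, with 4 libraries per column and a line at their median. Slc7a13, Slco1a1, Slc22a30 and Slc22a28 lie higher in M and Slc7a12 and Slc22a19 higher in F in each group, and the Stim M library set far below its 3 companions in Slco1a1, Slc22a30 and Slc22a28 is that of animal A5DA.

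A group of 3 members of the organic anion carrier family lies on the minus strand of chromosome 19 and holds genes of both directions. Slc22a30 (chr19:8335371-8405111, - strand) had 37.4, 126 and 169 CPM in M kidneys and 5.09, 8.46 and 18.6 CPM in F kidneys (4.15 ± 0.242, adjusted p = 9.77e-13). Slc22a28 (chr19:8062209-8131982, - strand) had 29.8, 128 and 171 CPM in M kidneys and 11.5, 16.7 and 22.2 CPM in F kidneys (3.17 ± 0.199, adjusted p = 2.81e-12). Slc22a19 (chr19:7673061-7711310, - strand), which in mouse takes up steroid sulphates, was lower in M, with 31.0, 53.1 and 80.9 CPM there and 84.9, 227 and 273 CPM in F kidneys (-1.64 ± 0.151, adjusted p = 3.35e-09). None of the 3, which are among the 8 carriers of largest sex difference, overlapped between the sexes. The share of all genes without such overlap was not computed. The counts of Slc22a28 and Slc22a30 are uncertain relative to each other, because 53.3% of the 50-base stretches of Slc22a28 transcripts also occur in Slc22a30, and the sources used here do not give how the authors counted such reads.

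The 250 bases before the RefSeq start of these 3 genes are shown because the genes differ in sex direction. For Slc22a30 this start lies just inside the GENCODE span given above. They are from RefSeq on GRCm38.p6, read 5′ to 3′ on the minus strand, and capitals mark CAAAGT on either strand, a core of sites bound by the tubule and liver factor HNF4A.
Slc22a30, chr19:8405106-8405355: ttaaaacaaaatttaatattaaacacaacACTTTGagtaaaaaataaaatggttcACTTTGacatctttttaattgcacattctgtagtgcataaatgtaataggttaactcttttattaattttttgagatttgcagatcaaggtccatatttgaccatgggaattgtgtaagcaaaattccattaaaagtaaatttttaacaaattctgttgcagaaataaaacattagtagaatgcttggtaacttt
Slc22a28, chr19:8131983-8132232: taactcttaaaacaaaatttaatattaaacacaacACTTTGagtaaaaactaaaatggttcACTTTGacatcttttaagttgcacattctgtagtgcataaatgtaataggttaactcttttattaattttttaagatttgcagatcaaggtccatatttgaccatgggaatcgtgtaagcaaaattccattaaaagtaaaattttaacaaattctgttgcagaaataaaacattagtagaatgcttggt
Slc22a19, chr19:7711311-7711560: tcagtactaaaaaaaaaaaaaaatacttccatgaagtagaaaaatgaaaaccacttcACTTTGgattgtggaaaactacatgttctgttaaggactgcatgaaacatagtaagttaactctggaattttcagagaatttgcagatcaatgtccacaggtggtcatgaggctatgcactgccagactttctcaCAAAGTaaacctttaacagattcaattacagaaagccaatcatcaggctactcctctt
The windows of Slc22a30 and Slc22a28, both higher in M, were identical in 93.0% of 256 aligned columns, and each held CAAAGT 2 times. The window of Slc22a19, higher in F, shared 62.8% with that of Slc22a30 and 63.0% with that of Slc22a28, and also held it 2 times. AGAACA on either strand, a half-site of the androgen receptor, occurred 1 time in the Slc22a19 window and not in the other two. Of 32851 promoter windows of the same length, 12.6% held CAAAGT and 16.1% AGAACA. Among the 38 windows found for 29 of the 37 carriers the numbers were 9 and 10. A match of letters is not a bound site, and a window without them says nothing about the factor.

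The basolateral and secretory carriers of organic anions followed the same direction as Slc22a30 in part. Slc22a6, which brings organic anions and many drugs in from the blood, had 580.4, 1136 and 1608 CPM in M kidneys and 213, 389.5 and 775 CPM in F kidneys (1.87 ± 0.190, adjusted p = 1.60e-08), with some overlap. Its neighbour Slc22a8, with a similar role, ranged over 249 to 998 CPM in M kidneys and 449 to 1315 CPM in F kidneys and was not called (-0.11 ± 0.219, adjusted p = 0.694). Slc22a7, another carrier of the family, was not called either (-0.24 ± 0.145). Slc22a12 was higher in M, with 1747 to 3677 CPM there and 720.1 to 1958 CPM in F kidneys (1.52 ± 0.164), as were Slc17a1 (0.97 ± 0.0885) and Slc17a3 (1.05 ± 0.134), which carry urate and other anions. Slc47a1, the carrier that releases organic cations into the urine, was higher by 0.74 ± 0.146, and Slco4c1 by 0.72 ± 0.214. By group, Slco4c1 was higher in M by 0.20 ± 0.285 in Stim, 0.32 ± 0.289 in Con and 1.71 ± 0.300 in T0 kidneys. Its difference over all groups was thus mostly that of T0.

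Among the remaining classes, Slc5a8, which takes lactate and other monocarboxylates from the urine, had 82.7, 146 and 253 CPM in M kidneys and 36.5, 64.1 and 92.3 CPM in F kidneys (1.56 ± 0.141, adjusted p = 2.23e-09). Its low-affinity relative Slc5a12 was lower in M (-0.45 ± 0.177), and so was Slc5a1 (-0.48 ± 0.0858), the glucose carrier of the late tubule, while Slc5a2 was not called (0.30 ± 0.171). Slc34a1 was higher in M by 0.91 ± 0.199, and Slc34a3, the second sodium-phosphate carrier of the brush border, was not called (-0.12 ± 0.125). Slc26a1 was higher by 0.89 ± 0.137. Of the amino acid and peptide carriers, Slc7a8 (-0.88 ± 0.174), Slc6a18 (-0.61 ± 0.0728), Slc15a2 (-0.60 ± 0.128) and Slc7a9 (-0.31 ± 0.0714) were lower in M, and Slc6a20b, of the imino acid carrier subfamily, was higher (0.43 ± 0.126). Before TMM scaling Slc6a20b did not differ in this way, with medians of 186 CPM in M and 188 CPM in F kidneys and ranges that overlapped. Slc6a18 is a brush border carrier of neutral amino acids, Slc15a2 takes up small peptides and Slc7a9 is the light subunit of the cystine carrier.

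**Figure D3:**
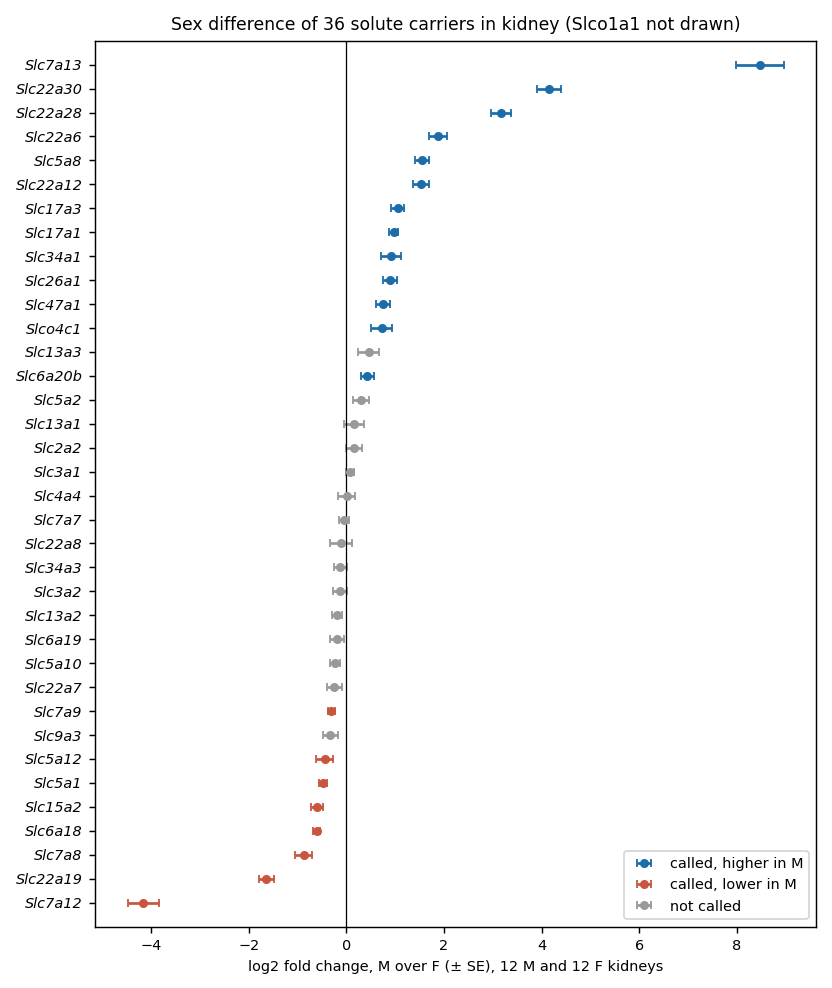
Log2 fold change of M over F (x axis, with its standard error) of 36 carriers (rows) in 12 M and 12 F kidneys, with called carriers in colour. Slco1a1 is not drawn, because its F level of 5 reads leaves the fold change without a firm value. Slc7a13 at 8.47 and Slc7a12 at -4.16 bound the range.

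By group, the log2 fold change of M over F was 0.94 in Stim, 0.98 in Con and 1.00 in T0 kidneys for Slc17a1, and 1.57, 1.54 and 1.56 for Slc5a8. For Slc7a13 it was 6.52, 9.43 and 9.89 in the same order of groups, and for Slc22a6 1.74, 2.62 and 1.27. For Slc34a1 it was 0.72, 1.61 and 0.41, and for Slc22a8, which was not called over all groups, -0.63, 0.91 and -0.58. The first 2 carriers were even across groups and the others less so. Tests of differences between the sexes in the response follow with the comparisons of groups.

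The first comparison of groups, Stim against Con kidneys, asks what 3 months of TLS changed. No carrier was called with both sexes together. The edgeR test called 0 of 37, DESeq2 called 1, Slc7a13, and 3 had an unadjusted p below 0.05, while 0.231% of all genes were called (37 of 16005) and 8.45% had such a p. The median log2 fold change was -0.01 over the 37 carriers and 0.01 over all genes tested. Leaving out each kidney in turn, A5DA included, gave 0 called.

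The 4 carriers with the smallest p were Slc7a13, Slc7a7, Slc13a1 and Slc5a1. Slc7a13 had a log2 fold change of 1.62 ± 0.475 (adjusted p = 0.234). In Stim M kidneys its levels were 1117, 346, 1187 and 974 CPM, against 841, 835, 930.0 and 751 CPM in Con M kidneys. The 3 Stim M kidneys other than A5DA lay above the 4 Con M kidneys, and A5DA, at 346 CPM, lay below them. In Stim F kidneys the levels were 6.61, 20.3, 18.4 and 6.88 CPM, against 1.41, 1.34, 1.23 and 2.06 CPM in Con F and 0.956, 1.14, 1.24 and 0.473 CPM in T0 F kidneys. All 4 Stim F kidneys lay above all 8 other F kidneys, though far below any M kidney. Within F, in a fit with sex crossed with treatment, Slc7a13 rose by 2.99 ± 0.408 against Con (adjusted p = 0.000894) and by 3.69 ± 0.421 against T0 (adjusted p = 0.000119), and it was called under all 12 alternatives run for each. Slco1a1, which had 27.7 to 456 CPM in Stim M kidneys, had 0 reads in each of the 4 Stim F kidneys, and Slc7a12, high in F, had 63.8 to 187 CPM in them.

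Within F, 2 of 37 carriers were called for Stim against Con, both higher, against 0.15% of all genes. The second was Slc7a7, the light subunit that passes basic amino acids to the blood. It had 205, 223, 194 and 272 CPM in Stim F kidneys and 152, 123.27, 137 and 126 CPM in Con F kidneys, which did not overlap (0.65 ± 0.133, adjusted p = 0.0448). The call of Slc7a7 was lost without any 1 of Stim F animals B23B and B51B or Con F animals 983B, 9916, A123 and D215. In M kidneys Slc7a7 had 186, 188, 134 and 162 CPM in Stim and 156, 151, 157 and 109 CPM in Con. Within M, 0 of 37 carriers were called by edgeR and 0 by DESeq2, 6 had an unadjusted p below 0.05, and 0.0312% of all genes were called. The smallest p in M belonged to Slc22a8 (-1.05 ± 0.290, adjusted p = 0.304) and Slc7a12 (1.25 ± 0.350, adjusted p = 0.321).

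Whether the TLS effect differed between the sexes was tested directly. No carrier was called by edgeR, DESeq2 called 1, Slc7a13, 11 of 37 had an unadjusted p below 0.05, and 0% of all genes were called (8.28% had such a p). The difference for Slc7a13, M minus F, was -2.91 ± 0.525 (adjusted p = 0.128). It passed the threshold without Stim animal A5DA (-2.63, adjusted p = 0.0173) or without Stim animal B03E (-3.14, adjusted p = 0.0498). Next were Slc22a8 (-1.53 ± 0.408, adjusted p = 0.531) and Slc7a12 (1.71 ± 0.477, adjusted p = 0.554). Slc22a8 had 609, 249, 288 and 289 CPM in Stim M and 739, 825, 998 and 307 CPM in Con M kidneys, while Stim F kidneys had 677, 648, 466 and 995 CPM and Con F kidneys 474, 454, 516 and 449 CPM. Slc7a12 had 8.72, 21.7, 15.5 and 11.4 CPM in Stim M kidneys, 7.40, 2.03, 5.92 and 7.26 CPM in Con M kidneys and 1.54, 3.37, 4.56 and 1.54 CPM in T0 M kidneys. All 4 Stim M kidneys lay above the other 8 M kidneys, and A5DA was the highest.

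The other 2 of these 4 carry sulphate and glucose. Slc13a1, the sodium-sulphate carrier, had 198, 528, 114 and 115 CPM in Stim M and 219.8, 142, 234 and 90.8 CPM in Con M kidneys, and 174, 199, 262 and 477 CPM in Stim F and 131, 146, 152 and 126 CPM in Con F kidneys (0.62 ± 0.258, adjusted p = 0.493). The highest value in M was that of A5DA, and all 4 Stim F kidneys lay above the Con F kidneys. Slc5a1 had a log2 fold change of 0.21 ± 0.105 (adjusted p = 0.592), with 50.3 to 79.2 CPM in Stim M against 33.0 to 53.8 CPM in Con M kidneys and 85.5 to 98.4 CPM in Stim F against 69.5 to 95 CPM in Con F kidneys.

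The second comparison, Con against T0, covers 3 months without TLS. Here 29 of 37 carriers had a negative log2 fold change, with a median of -0.22 against 0.00 over all genes tested. In Con, 2 were called, both lower, where 0.312% of all genes were called and 0.175% as lower. An unadjusted p below 0.05 was found for 15, against 11.3% of all genes, and DESeq2 called 5. Slc34a3 had 47.7, 42.5, 43.4 and 29.8 CPM in Con M and 62.5, 72.1, 77.2 and 41.3 CPM in T0 M kidneys, and 49.9, 31.8, 49.1 and 44.5 CPM in Con F and 104, 103, 84.8 and 87.2 CPM in T0 F kidneys. The F kidneys did not overlap and the M kidneys did. It fell in Con (-0.84 ± 0.154, adjusted p = 0.0134) and was called without each kidney in turn. Slc7a7 had 156, 151, 157 and 109 CPM in Con M and 166, 191, 188 and 111 CPM in T0 M kidneys, and 152, 123.27, 137 and 126 CPM in Con F and 267, 289, 286 and 289 CPM in T0 F kidneys. Here too the F kidneys stood apart and the M kidneys overlapped (-0.61 ± 0.127, adjusted p = 0.0350). Its call was lost, with adjusted p up to 0.0931, when any 1 of Con animals 983B, 9916, A123, D215 and E329 or T0 animals T0_1, T0_2, T0_3 and T0_5 was left out. Slc26a1 (-0.71 ± 0.167, adjusted p = 0.0697) and Slc22a7 (-0.75 ± 0.178, adjusted p = 0.0706) came next and did not pass.

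Within F, 9 of the 37 carriers differed between Con and T0 kidneys, 8 lower and 1 higher in Con. Of all genes, 2.19% were called in this comparison, 1.38% as lower and 0.806% as higher. The median log2 fold change was -0.44 over the 37 carriers and 0.01 over all genes. The 8 that fell belong to several classes and include both phosphate carriers. Whether the groups overlap is given for these carriers, but the share of all genes without overlap was not computed. Slc34a1 had 3119.6, 2375, 3485 and 2792 CPM in Con F kidneys, against 6547, 7260.0, 6782 and 6336 CPM in T0 F kidneys. The groups did not overlap (-1.17 ± 0.301, adjusted p = 0.0413). Slc34a3, whose values stand above, fell as well (-1.09 ± 0.209, adjusted p = 0.0132).

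The basolateral carriers of organic anions Slc22a6 and Slc22a8 fell in F. Slc22a6 had 248, 221, 249 and 213 CPM in Con F and 546, 629, 775 and 584 CPM in T0 F kidneys (-1.42 ± 0.262, adjusted p = 0.0125). Slc22a8 had 474, 454, 516 and 449 CPM in Con F and 977, 1221, 1315 and 1216 CPM in T0 F kidneys (-1.30 ± 0.291, adjusted p = 0.0248). In neither gene did the groups overlap. The basic amino acid carrier fell in both of its subunits, Slc7a7 (-1.05 ± 0.134, adjusted p = 0.000594) and Slc3a2 (-1.15 ± 0.204, adjusted p = 0.00947). Slc3a2 had 166, 130.2, 174 and 129 CPM in Con F kidneys, against 362, 357, 326 and 307 CPM in T0 F kidneys.

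The glucose carrier Slc5a2 had 422, 371, 407 and 398 CPM in Con F and 842, 928, 851 and 875 CPM in T0 F kidneys (-1.10 ± 0.256, adjusted p = 0.0287), and Slc26a1 had 75.9, 58.7, 74.7 and 63.7 CPM in Con F and 166, 158, 137 and 123.02 CPM in T0 F kidneys (-1.07 ± 0.222, adjusted p = 0.0198). Both were apart without overlap. The carrier that rose was Slco4c1, with 11.9, 14.2, 13.7 and 9.10 CPM in Con F and 7.30, 5.66, 5.06 and 1.95 CPM in T0 F kidneys (1.34 ± 0.299, adjusted p = 0.0240). In Stim F kidneys it had 14.6, 15.2, 13.0 and 10.3 CPM. Slc22a12 was close to the threshold (-0.95 ± 0.255, adjusted p = 0.0507). Fewer carriers were called without some animals: 1, Slc7a7, without Con animal 9916, 3 without T0 animal T0_2, 5 without any 1 of Con animals 983B and A123 and T0 animal T0_5, and 6 without T0 animal T0_3.

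**Figure D4:**
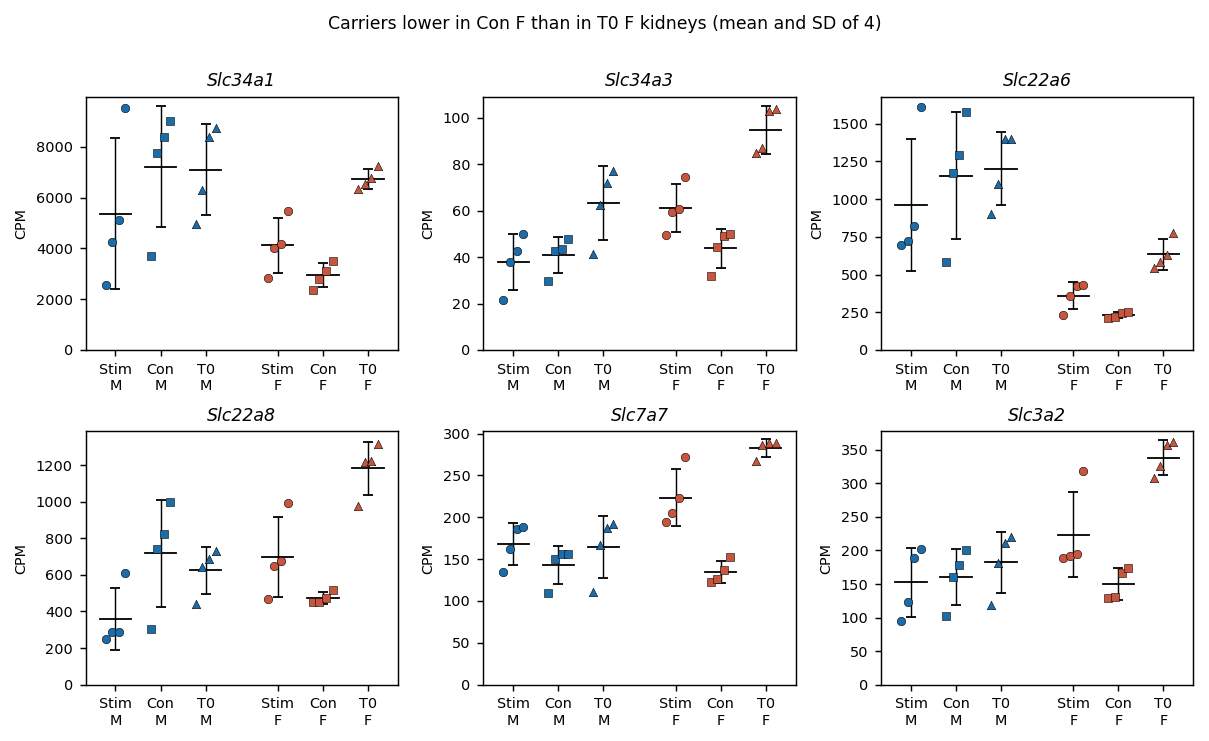
Level (CPM) in each of the 24 kidneys of 6 carriers that were lower in Con F than in T0 F kidneys, by group and sex, with the mean and SD of the 4 libraries of a column. In F the Con points lie below the T0 points in all 6 carriers without overlap, and in M the Con and T0 points overlap in all 6.

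Within M, 0 of 37 carriers were called for Con against T0 by edgeR, 0 by DESeq2 and 0 without each M kidney in turn. An unadjusted p below 0.05 was found for 3, and 0% of all genes were called (3.33% had such a p). Slc22a7 had the smallest p, with 181, 201, 143 and 148 CPM in Con M and 447, 359.8, 255 and 227 CPM in T0 M kidneys, which did not overlap (-0.93 ± 0.251, adjusted p = 0.766). For Slc34a1 the log2 fold change in M was 0.03 ± 0.297, for Slc22a6 -0.06 ± 0.257 and for Slc22a8 0.19 ± 0.287. The test of the difference between the sexes called 0 carriers with edgeR and 4 with DESeq2, namely Slc22a6, Slc22a8, Slc3a2 and Slc7a7. Of the 37, 11 had an unadjusted p below 0.05, and 0% of all genes were called (9.80% had such a p). The smallest p belonged to Slc7a7 (M minus F 0.87 ± 0.188), Slc22a6 (1.35 ± 0.366) and Slc22a8 (1.49 ± 0.408), each with an adjusted p of 0.311. A change over the 3 months that is particular to F is therefore not shown for any carrier by the main test.

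**Figure D5:**
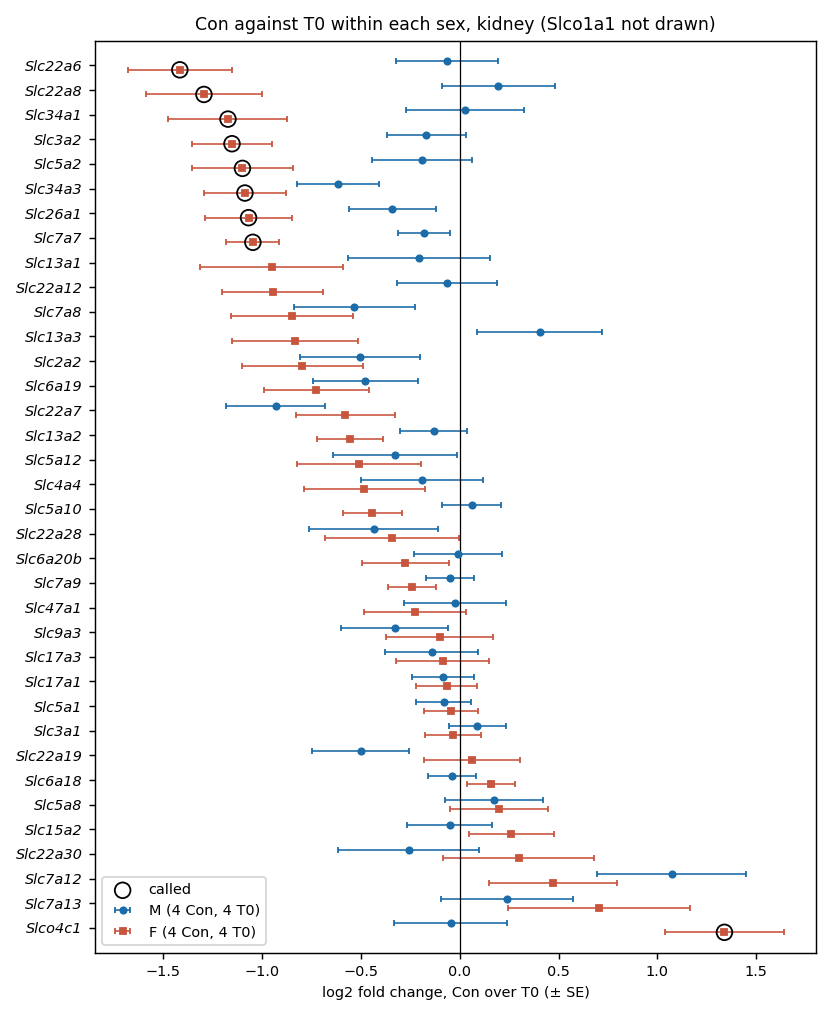
Log2 fold change of Con over T0 (x axis, with its standard error) of 36 carriers (rows) within M and within F kidneys, 4 against 4 in each, with called values circled. The F values of 8 circled carriers lie to the left of 0 and that of Slco4c1 to the right, and no M value is circled. Slco1a1 is not drawn.

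Other measures of the same F kidneys moved with these carriers. Mitochondrially encoded transcripts took 4.38 to 7.35% of counts in Stim F kidneys, 8.41 to 10.6% in Con F kidneys and 4.69 to 5.48% in T0 F kidneys. The Con F kidneys lay above all other kidneys. In M the shares were 2.71 to 5.56% in Stim, 3.02 to 6.05% in Con and 4.04 to 6.11% in T0 kidneys. The summed level of 12 proximal tubule genes that are not solute carriers was 11432 to 16528 CPM in Stim F kidneys, 10041 to 12539.5 CPM in Con F kidneys and 15367 to 18184 CPM in T0 F kidneys. In M kidneys this sum was 7416 to 16887 CPM in Stim. Con M animal E329 had 9756 CPM, against 14663 to 17754 CPM in the other Con M kidneys. T0 M animal T0_8 had 9922 CPM, against 13034 to 16205 CPM in the other T0 M kidneys. The TMM factor of T0_8, 0.67, was the lowest of all kidneys. Of these 12 genes, 1 was lower and 0 higher in Con F than in T0 F kidneys, against 1.38% and 0.806% of all genes, with a median log2 fold change of -0.55. It was Dpep1, a brush border dipeptidase (-0.81 ± 0.204, adjusted p = 0.0381). Between M and F, 4 of the 12 were higher and 3 lower in M, against 24.6% and 22.2% of all genes. Among them were Ggt1 (1.24 ± 0.121), an enzyme of glutathione breakdown, and Mme (-1.06 ± 0.134), a brush border peptidase. What part the mitochondrial share or the tubule content of the samples had in the carriers' values was not tested.

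The third comparison, Stim against T0, shares its Stim and T0 samples with the first and second. Here 4 carriers were called, all lower in Stim, against 0.681% of all genes called and 0.344% as lower. The median log2 fold change was -0.27 over the 37 carriers and 0.01 over all genes, and 28 of 37 were negative. Slc34a3 fell in Stim (-0.72 ± 0.153, adjusted p = 0.0240), with 49.8, 21.5, 37.8 and 42.6 CPM in Stim M and 59.6, 60.8, 49.4 and 74.4 CPM in Stim F kidneys beside the T0 values above. Slc7a8 had 104, 32.5, 52.3 and 52.0 CPM in Stim M and 76.8, 119, 188 and 68.9 CPM in T0 M kidneys, and 156, 159.9, 104 and 184 CPM in Stim F and 361, 307, 269 and 176 CPM in T0 F kidneys (-0.92 ± 0.213, adjusted p = 0.0394). The groups overlapped in both sexes.

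Slc22a7 had 284, 115, 166 and 273 CPM in Stim M and 447, 359.8, 255 and 227 CPM in T0 M kidneys, and 309.8, 277, 312 and 190.0 CPM in Stim F and 510.1, 469, 429 and 470.1 CPM in T0 F kidneys (-0.76 ± 0.178, adjusted p = 0.0410). It was lower in all 4 Stim F than in all 4 T0 F kidneys, and the M kidneys overlapped. Slc5a2 had 552, 197, 348 and 421 CPM in Stim M and 708, 881, 804 and 484 CPM in T0 M kidneys, and 505, 469, 361 and 734 CPM in Stim F beside the T0 F values above (-0.87 ± 0.208, adjusted p = 0.0454). Slc7a13 was just outside the threshold (1.97 ± 0.480, adjusted p = 0.0525). None was called when Stim animal B4B9 or T0 animal T0_1 or T0_2 was left out. With 1 library left out, 1 carrier was called without any of Stim animals B03E, B23B and DDF3 and T0 animals T0_3 and T0_6, 2 without any of T0_4, T0_5, T0_7 and T0_8, and 8 without Stim animal 47BE. Within M, 1 carrier was called, against 0.05% of all genes. It was Slc7a12, which rose by 2.32 ± 0.371 (adjusted p = 0.00691), and its call was lost without T0 animal T0_8 while 3 carriers were called without Stim animal 47BE. Within F, Slc7a13 was the 1 carrier called, against 0.112% of all genes, and 2 were called without Stim animal B51B.

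Carriers that were not called between groups in either sex made up most of the set. Among glucose and monocarboxylate carriers they were Slc5a8, Slc5a10, Slc5a12, Slc5a1 and Slc2a2. Slc5a10, a carrier of fructose and mannose, had 137 to 232 CPM in Stim M, 152 to 256 CPM in Con M and 148 to 253 CPM in T0 M kidneys, and 254 to 335, 221 to 275 and 301 to 382 CPM in Stim F, Con F and T0 F kidneys. In F kidneys the Slc3a1 ranges of the groups overlapped, with 767 to 869 CPM in Stim F, 650.4 to 806 CPM in Con F and 694 to 799.5 CPM in T0 F kidneys. Slc7a9, its partner, had 136 to 151, 113 to 141 and 145 to 178 CPM in the same groups.

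The remaining carriers of urate, cations, lactate and peptides were also uncalled between groups. In M kidneys, Slc17a3 had 320.4 to 860.2 CPM in Stim, 424 to 684 CPM in Con and 500.5 to 707 CPM in T0, and Slc47a1 241 to 699.8, 284 to 602 and 318 to 743 CPM. In F kidneys, Slc5a12 had 73.0 to 133 CPM in Stim, 70.1 to 108 CPM in Con and 80.5 to 163 CPM in T0. Slc15a2 had 73.8 to 175 CPM in Stim F, where animal B51B was lowest, 145 to 186 CPM in Con F and 125 to 144 CPM in T0 F kidneys. Slc2a2 had 47.4 to 97.2 CPM in Stim F, 52.8 to 79.9 CPM in Con F and 75.9 to 144 CPM in T0 F kidneys.

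The neutral amino acid carriers of the brush border, Slc6a18 and Slc6a19, were not called between groups. Slc6a18 ranged over 1026 to 1222 CPM in Stim F, 1069 to 1341 CPM in Con F and 1042 to 1218 CPM in T0 F kidneys, and Slc6a19, the main one, over 188 to 288, 170.5 to 238 and 229 to 418 CPM. Slc13a2, a dicarboxylate carrier of the brush border, had 66.1 to 79.6 CPM in Stim F, 48.6 to 76.2 CPM in Con F and 84.8 to 112 CPM in T0 F kidneys (-0.56 ± 0.169 for Con against T0 in F, adjusted p = 0.0742). Its basolateral relative Slc13a3 had 718 to 1553, 686 to 931 and 1129.9 to 1543 CPM there (-0.83 ± 0.317, adjusted p = 0.154). Slc9a3, the sodium-proton exchanger of the brush border, had 87.5 to 115 CPM in Stim F, 67.9 to 109 CPM in Con F and 59.3 to 118 CPM in T0 F kidneys, and Slc4a4 had 216 to 428, 273 to 425 and 297 to 592 CPM.

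Of 9 genes whose products work with these carriers or in their membrane, 5 were higher in M and 0 lower. Of all genes tested in kidney, 24.6% were called higher and 22.2% lower in M. Among the 5 were Slc9a3r1 (0.68 ± 0.104), a scaffold that holds phosphate carriers in the brush border, Cltrn (0.64 ± 0.124), which brings amino acid carriers to the membrane, Fxyd2 (0.81 ± 0.180), a regulator of the sodium pump, and Pdzk1ip1 (0.51 ± 0.147). None was called for Stim against Con, and 1 had an unadjusted p below 0.05, as 8.45% of all genes did. Pdzk1, another scaffold of the brush border, was not called in any kidney comparison run, with 0.25 ± 0.131 for M against F.

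Of 8 transcription factors of the tubule, 4 were higher and 1 lower in M, against 24.6% and 22.2% of all genes. None was called between Stim and Con, where none had an unadjusted p below 0.05. Nr1h4, the bile acid receptor, differed most (1.31 ± 0.147). Within F, 2 of the 8 were lower in Con than in T0 kidneys, against 1.38% of all genes, among them Maf (-0.68 ± 0.182, adjusted p = 0.0475). Of the 8, 7 had a negative log2 fold change (median -0.47). Hnf4a was not called in any kidney comparison run (-0.09 ± 0.214 for Con against T0 in F).

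Of 10 genes of phosphate control other than the 2 carriers, none was called for Stim against Con, Con against T0 or Stim against T0. There 1, 2 and 5 had an unadjusted p below 0.05, against 8.45%, 11.3% and 15.1% of all genes. In M, 2 were higher, Pth1r (0.83 ± 0.132) and Fgfr4 (0.52 ± 0.112), where 24.6% of all genes were. Pth1r, the receptor of parathyroid hormone, which makes the tubule withdraw its phosphate carriers, averaged 481 ± 40.3 CPM in Con F kidneys and 895 ± 62.7 CPM in T0 F kidneys (SD, n = 4 each; -0.86 ± 0.187, adjusted p = 0.0216), so the receptor and both phosphate carriers were lower there. Cyp27b1, which makes active vitamin D, was not called for Stim against Con (1.12 ± 0.370, adjusted p = 0.321).

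Of 12 genes known to differ by sex in mouse kidney, 9 were higher and 2 lower in M, led by Cyp2j13 (8.24 ± 0.332), Acsm3 (7.84 ± 0.294) and Cyp7b1 (5.74 ± 0.157), with Prlr, the prolactin receptor, lower (-3.61 ± 0.297). None of the 12 was called for Stim against Con, where 0.231% of all genes were. Within F, 0 were called and 5 had an unadjusted p below 0.05, against 8.45% of all genes. There 7 of the 12 had a positive and 5 a negative log2 fold change. Their summed level was 2348 to 10859 CPM in Stim F, 12822 to 22092 CPM in Con F and 12202 to 21309 CPM in T0 F kidneys. In M kidneys it was 27637 to 79053 CPM in Stim and 32781 to 60550 CPM in Con. For these 12 genes and the lists below, 24.6% of all genes were called higher and 22.2% lower in M. Of 7 genes of the distal nephron, 6 were lower and 0 higher in M. Among other cell types, all 4 podocyte and all 4 endothelial genes, 2 of 3 stromal genes and 1 of 4 immune genes were lower in M, and 0 were higher. Of the 6 injury genes, Havcr1 was higher in M (2.89 ± 0.884). The summed level of the 6 was 11596 CPM in the M kidney of A5DA, 418 to 909 CPM in the other M kidneys and 1293 to 2352 CPM in F kidneys. Apart from A5DA, this sum was thus lower in M, and the list genes were not tested without A5DA. Of 4 liver genes 2 were called, 1 in each direction, 0 of 3 fat genes and 0 of 3 nuclear RNAs were, and Star, the 1 adrenal gene of 4 that was tested, was lower in M (-2.08 ± 0.668), where the F kidney of T0_3 held 205 CPM of the adrenal genes and no other kidney more than 2.37 CPM. Between Stim and Con, 0 genes of these other cell type lists were called except Alb, which was lower in Stim (-1.19 ± 0.258, adjusted p = 0.0442), where 0.231% of all genes were called. An unadjusted p below 0.05 was found for 5 of 6 injury genes, against 8.45% of all genes. These were high in A5DA, as their sums above show, while the other Stim M kidneys had 647 to 710 CPM and Con M kidneys 592 to 680 CPM. In Stim against T0, 1 of 4 podocyte genes was lower in Stim, against 0.344% of all genes. All 4 had a negative log2 fold change (median -0.50) and an unadjusted p below 0.05, against 15.1% of all genes with such a p. Of 4 immune genes 1, Cd74, was higher in Stim than in T0 (1.53 ± 0.337), as were 54 of 16005 genes. The immune sum was 2904 CPM in A5DA and 1265 CPM in Stim F animal B4B9, against 397 to 589 CPM in the other Stim kidneys. In Con against T0 in F, 1 of the 4, the macrophage gene Csf1r, was higher (0.57 ± 0.134), against 0.806% of all genes. Genes of distal tubule, podocytes and endothelium were thus lower in the same M kidneys in which 14 carriers were higher and 8 lower, and the part of cell composition in the carriers' values was not tested.

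In liver, 18 of the 37 carriers passed the filter on low counts. For Stim against Con 2 were called, both higher, against 1.95% of all 13604 genes tested there. Slc13a3 had 34.0, 75.3, 37.7 and 24.8 CPM in Stim M and 16.0, 14.9, 10.3 and 14.3 CPM in Con M livers, and 39.7, 26.5, 52.8 and 17.9 CPM in Stim F and 9.56, 17.5, 15.7 and 18.5 CPM in Con F livers. All Stim M livers lay above all Con M livers, and in F 1 Stim liver lay within the Con range (1.37 ± 0.314, adjusted p = 0.0232). Slc17a1 averaged 13.5 ± 4.47 CPM in Stim and 6.44 ± 2.01 CPM in Con livers (SD, n = 8 each), and the groups did not overlap (0.93 ± 0.234, adjusted p = 0.0387). In F livers, mean Slc13a3 was 34.22 CPM in Stim, 15.32 CPM in Con and 32.86 CPM in T0. For Slc17a1 these F means were 12.49, 6.93 and 11.45 CPM. In M livers the means in the same order were 42.98, 13.90 and 14.05 CPM, and 14.50, 5.95 and 5.03 CPM. By these means T0 lay closer to Stim in F and to Con in M. Differences from T0 livers were not tested. Without Stim animal A5DA, whose liver had 13.6 CPM of Slc22a30, Slc13a3 had 0.89 (adjusted p = 0.0231) and Slc17a1 0.90 (adjusted p = 0.0399).

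Slc3a1 averaged 43.2 ± 44.2 CPM in Stim and 22.9 ± 4.85 CPM in Con livers (0.90 ± 0.406, adjusted p = 0.25), and without A5DA the log2 fold change was 0.01. Slc22a7 averaged 9.42 ± 5.34 CPM in Stim and 15.5 ± 12.3 CPM in Con livers (-0.66 ± 0.368, adjusted p = 0.352). In kidney the log2 fold changes of Slc13a3 and Slc17a1 for Stim against Con were -0.19 ± 0.256 and 0.08 ± 0.107. The difference of the Stim effect, kidney minus liver, was -0.84 ± 0.25 for Slc17a1 (adjusted p = 0.174) and -1.46 ± 0.443 for Slc13a3 (adjusted p = 0.178), and edgeR called 0 of 37 carriers, DESeq2 1, Slc22a12, and 6 had an unadjusted p below 0.05, with 0.0612% of all genes called. An effect of TLS that differs between the tissues is thus not shown for these carriers by the main test.

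For M against F in liver, 4 of 18 carriers were called, against 6.4% of all genes, and 7 were called without animal A5DA. Slc22a28 (5.02 ± 0.381) and Slco1a1 (5.28 ± 0.616) were higher in M in liver as in kidney. Slc22a28 averaged 14.0 ± 9.17 CPM in Stim M and 13.7 ± 1.88 CPM in Con M livers, against 0.282 ± 0.207 CPM and 0.298 ± 0.246 CPM in the F livers of these groups (SD, n = 4 each). Slc22a30, higher in M kidneys, was not called in liver with A5DA kept (0.76 ± 0.256, adjusted p = 0.0788). It had 13.6 CPM in the liver of A5DA, 93.9 to 279 CPM in the other M livers and 33.7 to 168 CPM in F livers. Slc22a7 was higher (1.08 ± 0.304) and Slc4a4 lower (-0.87 ± 0.163) in M livers.

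In cortex 12 carriers passed the filter and 2 were called for Stim against Con, against 5.41% of all genes. Slc7a8 averaged 66.6 ± 8 CPM in Stim and 78.6 ± 5.07 CPM in Con cortex (SD, n = 8 each; -0.24 ± 0.0629, adjusted p = 0.0276), and Slc4a4 153 ± 20.9 CPM in Stim and 126 ± 21.5 CPM in Con cortex (0.29 ± 0.0855, adjusted p = 0.0429). In WAT 14 carriers passed the filter and edgeR called 0, against 0.00596% of all genes, with 6 at an unadjusted p below 0.05 and 1 called by DESeq2, Slc3a1. The kidney genes among them were uneven across animals. Slc34a1 had 52.0, 36.5 and 43.3 CPM in the Stim WAT of animals A5DA, B23B and B4B9, against 0 to 1.67 CPM in the other 12 Stim and Con WAT libraries, and 17.6 CPM in that of T0 animal T0_8. Umod, a gene of the thick ascending limb of the kidney, had 46.6, 7.43 and 3.73 CPM in the same 3 libraries, against 0 to 6.41 CPM in the other 12. The part of kidney RNA in these WAT values was not tested.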

How the data were processed

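Poly(A) RNA of kidney, liver, cortex and WAT was sequenced in 95 libraries. The values used are deposited raw counts by gene symbol, made by the authors with featureCounts per the file name recorded at deposit and with STAR 2.7.10 on mm10 per the submitters' processing notes. Strand setting and treatment of reads shared by similar genes are not given in the sources used here. No column was left unmapped. Library totals were 8217875 to 28337864 counts in kidney, 4031533 to 29269511 in liver, 14299369 to 22962145 in cortex and 15881766 to 29089492 in WAT, and no pair of kidney libraries of 1 treatment group agreed within sampling noise (lowest chi-square per degree of freedom 9.56 over 84 pairs). The labels name 1 batch, so no batch could be split.

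Each tissue was fitted with edgeR 4.0.16 (R 4.3.3; quasi-likelihood, robust, TMM, filter at a count of 10) with 3 groups and sex. Responses by sex came from a fit with sex crossed with treatment, and the values within each sex were added after the data were seen. Kidney and liver of Stim and Con animals were compared in a joint fit. DESeq2 1.42.0 was an alternative. The scripts were tested on simulated data. Standard errors are the log2 fold change divided by the root of F. Within a tissue, the p-values set differences against the spread between animals. The joint fit held kidney and liver of the same animals without an animal block, which was run as an alternative.

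The 37 members and the gene lists (other proximal tubule genes, partner genes, tubule transcription factors, phosphate control, sex-dependent kidney genes, distal nephron, podocyte, endothelium, stroma, immune, injury, adrenal, fat, liver and nuclear RNA) were chosen with earlier results of these data known. Values are given for members called between groups, the 4 of smallest p in each kidney comparison of groups and in liver, the 8 of largest M against F difference, the 3 of smallest p in each test between the sexes, and up to 4 genes of smallest p per list; other members are given by range or count, and some list genes are not reported here. Animal numbers pair kidney and liver. Same-animal deviations had a mean correlation of 0.07 (16 pairs, -0.22 to 0.60), against -0.02 between different animals alike in group and sex (48 pairs). Coordinates are GENCODE vM21 (GRCm38), promoters RefSeq GRCm38.p6, and aligned windows were compared with Biopython 1.88.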

Additional observations from a re-analysis of the deposited data

Results flagged for a closer look

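Dixon's ratio was computed 119 times, over 20 carriers in groups of 4 kidneys of 1 treatment and sex. In 9 of these tests, from 7 kidneys, 1 value lay far from the other 3, where chance gives about 1 in 20. All of these libraries were kept.

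In Stim M, animal A5DA was low in Slc22a28 (29.8 CPM, nearest 159 CPM) and Slc22a30 (37.4 CPM, nearest 151 CPM), the kidney whose injury and immune genes were high. Animal 47BE was high in Slc22a6 (1608 CPM, nearest 820.4 CPM) and Slc22a8 (609 CPM, nearest 289 CPM). In Stim F, animal B23B was high in Slc5a8 (92.3 CPM, nearest 68.9 CPM) and animal B51B in Slc3a2 (318 CPM, nearest 195 CPM). In Con M, animal E329 was low in Slc7a7 (109 CPM, nearest 151 CPM). In Con F, animal D215 had Slco1a1 reads at 0.125 CPM where the nearest library had 0. In T0 F, animal T0_1 was low in Slc7a7 (267 CPM, nearest 286 CPM), a small difference in a narrow group.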

How the results depend on the processing

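Direction was checked for the carriers chosen by rule in each comparison, and none of these reversed under any alternative run. Values of other carriers and of list genes were not checked in this way. Between M and F, 21 to 25 carriers were called over all alternatives, 22 in the main analysis. For Stim against Con, where 0 carriers were called, DESeq2 called 1, sex crossed with treatment 1 and F libraries alone 2. For Con against T0, with 2 called, DESeq2 called 5, sex crossed with treatment 4, no sex covariate 1, only the 2 groups compared 7, F libraries alone 18, M libraries alone 0 and a covariate for the difference between long and short genes 7. For Stim against T0, with 4 called, DESeq2 called 10, no filter on low counts 2, F libraries alone 9, and no sex covariate, only the 2 groups and M libraries alone 0 each. DESeq2 called 1 carrier for the sex difference of Stim against Con and 4 for that of Con against T0. Within M, the long and short gene covariate gave 1 call for Stim against Con and 2 for Stim against T0 (DESeq2 2). Within F, it gave 14 calls for Con against T0 (9 in the main analysis) and 3 for Stim against T0 (DESeq2 2), and no filter gave 1 for Stim against Con. No filter gave 1 call in liver and 1 in cortex, DESeq2 1 in WAT, and for the Stim effect in kidney minus liver DESeq2 and no filter gave 1 each. The cause of these changes was not tested. Without A5DA, 7 carriers were called between M and F in liver. Leaving out each kidney in turn gave 1 to 3 calls for Con against T0, 0 to 8 for Stim against T0, 0 to 1 for the sex difference of Stim against Con, 1 to 2 for Stim against Con within F, 1 to 9 for Con against T0 within F, 0 to 3 for Stim against T0 within M and 1 to 2 within F. With the animal as a replicate block, 37 carriers were called between kidney and liver and 0 for the difference of the Stim effect, as without it. With 8 animals a group and 4 a sex, counts of calls near the threshold move with single libraries. Low carriers such as Slco4c1, or Slco1a1 in F, rest on few reads.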
